A study of Sus scrofa with 35 samples.

Results

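Expression of 10 genes that are read as signs of fat cells and of fat synthesis, ADIPOQ, LEP, PLIN1, FABP4, SCD, FASN, ACACA, LPL, PPARG and ACLY, was followed in the longissimus dorsi, the large muscle along the back, of 35 pigs. Every non-control probe that carries one of these gene names in the array scanner output was taken, whatever its signal. The names of 9 of the 10 genes were found, on 54 of 60305 probes, against 11457 named genes on the whole array. ACLY was not found under that name, and its 3 probes were read through its older name ACL, which the RefSeq gene table of assembly Sscrofa11.1 lists as a synonym. Of the 54 probes, 52 passed the filter on dim signals, as did all 3 ACLY probes.

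The study compared castrated male growing pigs of 3 genetic types at 2 ambient temperatures to see how muscle responds to heat. Creole is a fat pig of the Caribbean that tolerates heat, Large White is a lean and fast-growing breed, and F1 is the cross of both. Pigs labelled 24 °C were slaughtered at thermoneutrality (TN), and pigs labelled 30 °C were slaughtered after at most 5 days of heat stress (HS), for which the growth protocol gives 32 °C. Each of the 6 groups held 6 pigs, 1 array per pig, except F1 at HS with 5. All pigs were housed in the same facility with free access to feed, and the pigs came from litters of which several pigs were used. Per the study, each litter and each pen held pigs of 1 genetic type. Differences between breeds therefore also hold differences between litters and between pens, whose part was not tested. The study reported that the heat-stressed pigs ate less during the heat than before it. The TN pigs were killed before the temperature rose and the HS pigs after it. Temperature, feed intake, age and day of slaughter therefore cannot be told apart. Values are log2 of the quantile-normalised median spot intensity, so a difference of 1 is a 2-fold difference, and levels of different probes are not compared. Across the arrays, 58.4% to 75.9% of probes stood above background. The correlation between arrays over the probes that passed the filter lay between 0.941 and 0.996.

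Fat cells in muscle lie between the fibres, and their number and size make up most of the marbling of meat. Adiponectin (ADIPOQ) and leptin (LEP) are hormones that adipocytes secrete, perilipin 1 (PLIN1) coats their lipid droplet, and FABP4 carries fatty acids inside adipocytes and also inside macrophages and capillary endothelium. ATP citrate lyase (ACLY), acetyl-CoA carboxylase alpha (ACACA), fatty acid synthase (FASN) and stearoyl-CoA desaturase (SCD) act in that order to turn citrate into monounsaturated fatty acids, and lipoprotein lipase (LPL), which muscle fibres also make, frees fatty acids from circulating lipoproteins. PPARG is the nuclear receptor that drives adipocyte differentiation. In a piece of whole muscle, fewer fat cells and less of a transcript in each fat cell cannot be told apart.

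The 57 probes of the 10 genes are all 60 bases long, and 23 of them share a run of at least 20 bases with another probe of the same gene, in 16 pairs, so probes of a gene are not independent readings. The sequences below, printed 5′ to 3′ as in the scanner output, are a selection of probes of LEP, FASN, LPL and SCD. The brightest LPL probe is not among them. Both called changes described further on, in LEP and LPL, rest on single probes of this set. A pair of LEP probes and a pair of FASN probes carry the same 60 bases, all of them in capitals. For LPL and SCD no letters are in capitals, and the first 30 bases are given for the probes marked so.
LEP O15019 and LEP A_72_P442233: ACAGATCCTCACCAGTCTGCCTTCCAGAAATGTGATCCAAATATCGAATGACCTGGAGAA
FASN A_72_P647699 and FASN A_72_P338038: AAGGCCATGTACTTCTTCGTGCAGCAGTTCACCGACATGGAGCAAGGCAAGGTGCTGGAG
LPL A_72_P742824, first 30 bases: atgatggttactgttcaattttaggcttac
LPL A_72_P715658: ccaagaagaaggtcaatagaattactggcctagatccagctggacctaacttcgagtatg
SCD A_72_P088586, first 30 bases: tctgaagctagttgtactgatctgagattg
SCD A_72_P558694: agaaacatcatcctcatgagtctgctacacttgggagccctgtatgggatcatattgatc

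The FASN pair with identical letters gave nearly identical values over the 35 arrays (Pearson's r = 0.989, Spearman's rho = 0.985), whereas the LEP pair did not (r = 0.254, rho = 0.231, and r = 0.0187, rho = 0.0829 with group means subtracted). LEP was the dimmest of the 10 genes. Its 3 probes had median signals of 1.77, 1.35 and 1.00 times the local background, whereas the brightest probe of every other gene reached 15.4 times (PLIN1) to 384 times (FABP4). The values of LEP therefore have little range above background, and fat-cell leptin was at the edge of what these arrays measured. Between probes of 1 gene, r with the brightest probe was 0.869 to 0.992 for SCD, 0.912 to 0.980 for FABP4, 0.753 to 0.981 for ADIPOQ, 0.711 to 0.982 for PLIN1, 0.584 to 0.869 for LPL and 0.345 to 0.553 for ACACA.

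**Figure D1:**
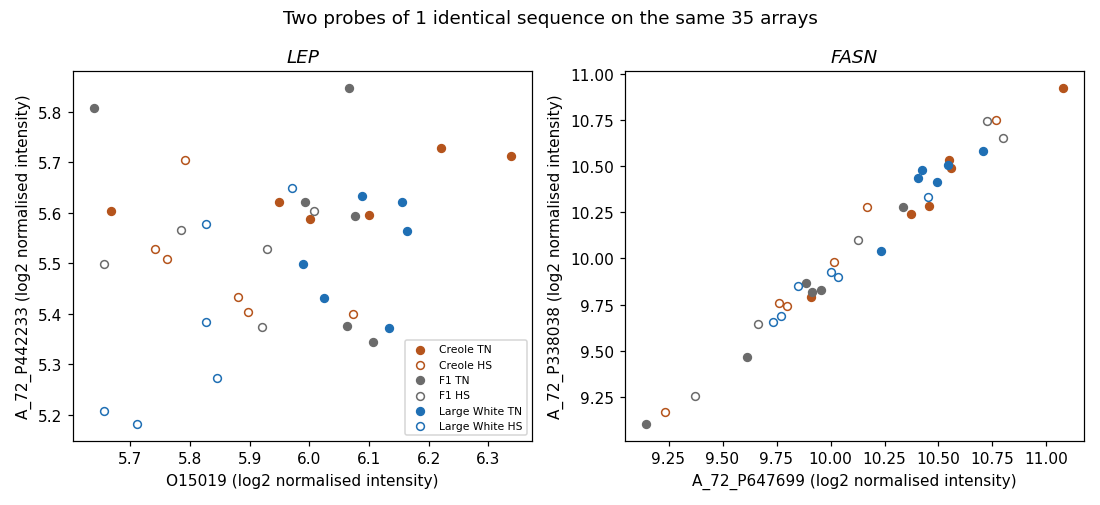
Log2 intensity of 2 probes with the same 60-base sequence plotted against each other, 1 point for each of the 35 arrays, for LEP and for FASN. The FASN points follow a line (r = 0.989), and the LEP points, close to background, form a cloud (r = 0.254).

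Levels of ADIPOQ and PLIN1 overlapped between all breeds, and none of the brightest probes of the 10 genes passed the threshold in any comparison. ADIPOQ, on its brightest probe, had a median of 11.63 (lowest 10.69, highest 12.14) in Creole at TN and of 11.68 (11.02 to 12.33) in Large White at TN. At HS the medians were 11.69 (10.66 to 11.82) in Creole and 11.59 (10.13 to 12.71) in Large White. F1 had the lowest median at TN, 10.98 (10.11 to 11.61), and the 5 F1 pigs at HS read 11.50, 11.51, 11.70, 11.99 and 12.04. The ranges of the fat and the lean breed overlapped over most of their length, and the lowest F1 pig at TN lay just below the lowest pig of any other group.

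PLIN1 also had its lowest median in F1 at TN. Its medians at TN were 9.35 (9.03 to 10.11) in Creole, 8.70 (8.17 to 9.68) in F1 and 9.58 (9.17 to 10.38) in Large White. At HS they were 9.19 (8.65 to 9.80) in Creole and 9.43 (8.37 to 10.12) in Large White, and the F1 pigs read 9.03, 9.26, 9.42, 9.54 and 9.96. FABP4, the brightest of the 10 genes against its background, had medians at TN of 13.88 (13.24 to 14.72) in Creole, 13.65 (13.02 to 14.62) in F1 and 14.11 (13.72 to 15.73) in Large White. At HS its medians were 14.37 (13.57 to 15.39) in Creole and 14.47 (14.35 to 16.83) in Large White, while the F1 pigs lay close together at 13.75, 13.96, 13.98, 14.0001 and 14.11. The highest FABP4 value of all, 16.83, belonged to Large White replicate 5 at HS.

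The lipogenic enzymes SCD and FASN had medians in Creole close to those in Large White. SCD had medians at TN of 13.26 (12.79 to 13.58) in Creole, 12.08 (11.69 to 13.11) in F1 and 13.21 (12.53 to 13.55) in Large White. At HS its medians were 12.60 (11.28 to 13.28) in Creole and 12.61 (11.40 to 12.71) in Large White, and the F1 pigs read 11.72, 12.62, 13.32, 13.52 and 13.74. The F1 pigs were therefore low at TN, where the pure breeds were high, and 3 of the 5 F1 pigs at HS lay above every pig of both pure breeds at HS. FASN had medians at TN of 14.13 (13.46 to 14.55) in Creole, 13.39 (12.83 to 14.22) in F1 and 14.11 (13.99 to 14.32) in Large White. At HS its medians were 13.66 (12.69 to 14.61) in Creole and 13.75 (13.19 to 14.30) in Large White, and the F1 pigs read 13.09, 13.35, 13.83, 14.43 and 14.45. The group means of ACACA ran from 9.22 (F1 at TN) to 9.56 (F1 at HS), and those of ACLY from 12.05 (F1 at TN) to 12.53 (Large White at TN), a narrower range than for SCD.

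**Figure D2:**
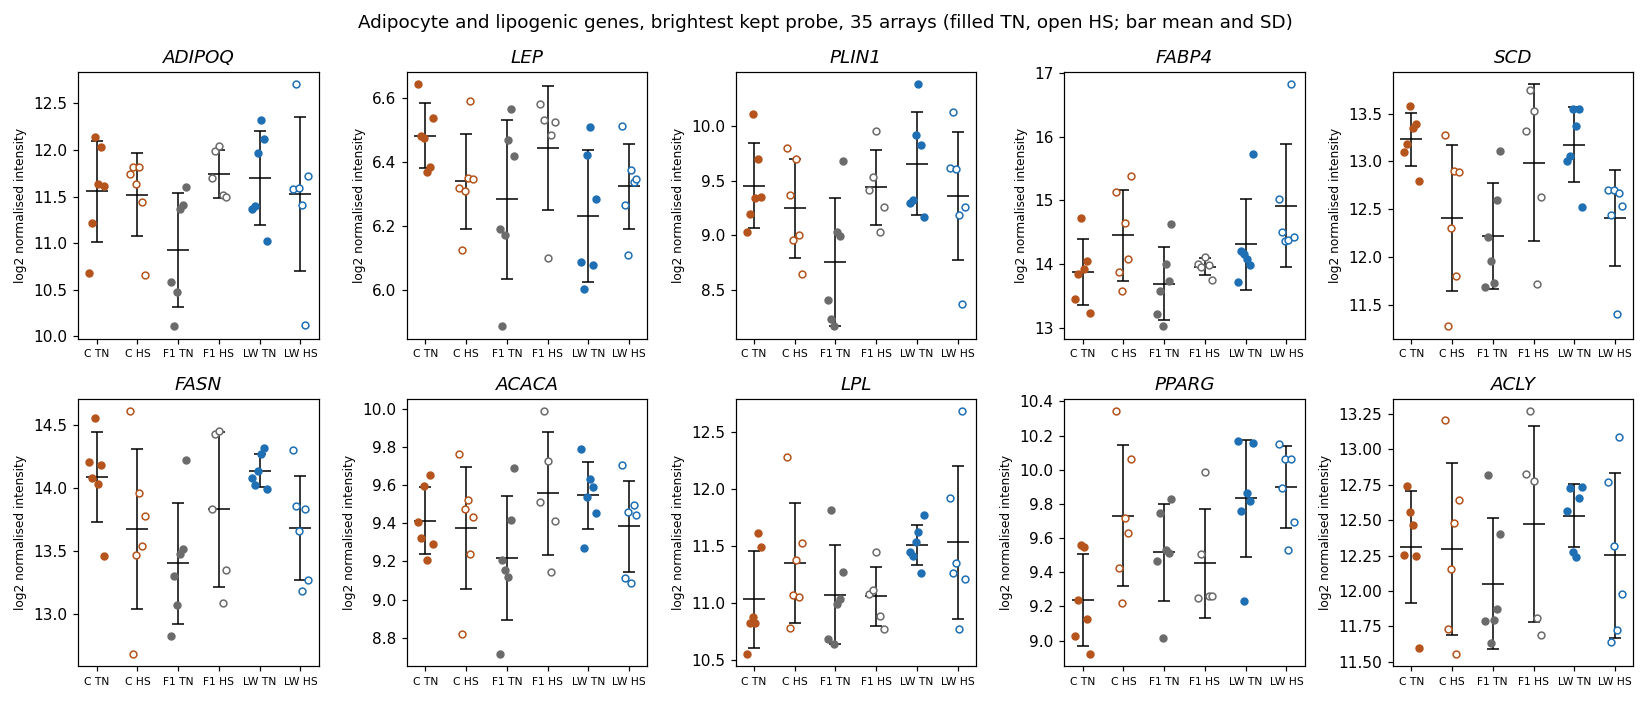
Log2 intensity of the brightest kept probe of each of the 10 genes, 1 panel per gene, with 1 point per pig in the 6 groups (filled for TN, open for HS) and bars for the mean and SD. Most groups overlap. The SCD means are lower at HS than at TN in Creole (12.41 and 13.23) and Large White (12.41 and 13.17). In F1 they are higher at HS than at TN (12.99 and 12.22).

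The comparison of breeds asks whether the fat breed carries more fat-cell transcript in its muscle than the lean breed. Over both temperatures, 11 of the 52 kept probes were higher and 41 lower in Creole than in Large White, with a median difference of -0.0876 log2 against 0.00829 over all kept probes. After Benjamini-Hochberg adjustment over the 41517 kept probes, 1 of the 52 probes (1.92%) was called, against 3.64% of all kept probes, so the count of calls lay below the background. At an unadjusted p under 0.05 there were 11 (21.2%), against 15.4% of all kept probes. The brightest probes of the adipocyte genes gave 95% intervals of -0.54 to 0.40 for ADIPOQ, -0.57 to 0.26 for PLIN1, -0.97 to 0.06 for FABP4 and -0.02 to 0.29 for LEP. The brightest probes of the enzymes gave -0.51 to 0.56 for SCD, -0.43 to 0.36 for FASN, -0.30 to 0.16 for ACACA and -0.50 to 0.32 for ACLY. A Creole level higher by 1 log2 lies outside each of these 8 intervals, and smaller differences in either direction lie inside them. The LEP probe had a median signal of 1.77 times the local background, which shrinks differences. Its interval therefore does not bound the difference in leptin transcript. All 8 intervals treat littermates as independent, and the effect of this on their width was not tested.

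The called probe belonged to LPL and was lower in Creole. Probe A_72_P742824 had medians of 10.43 (8.49 to 11.12) in Creole and 11.32 (10.62 to 11.69) in Large White at TN, and of 10.20 (9.37 to 11.60) and 11.13 (10.75 to 12.30) at HS. In F1 its median at TN was 10.36 (10.01 to 11.28), and the pigs at HS read 9.62, 10.41, 10.46, 10.51 and 10.93. Of the 12 Creole pigs, 11 lay below the mean of the Large White pigs, 11.25 ± 0.46 (SD, n = 12), and 3 lay inside the Large White range. The difference was -0.97 log2 (SE 0.23, 95% interval -1.45 to -0.50, adjusted p = 0.0126), or 0.509-fold, and leaving out any 1 pig kept the call. Within the 5 slides, each a glass carrier of up to 8 arrays, the difference was -0.81, -0.74, -0.89, -0.88 and -1.61, the last between 1 Creole pig at HS and 2 Large White pigs at TN. With the mean of connective tissue markers as a covariate it was -0.69 and the call was lost (adjusted p = 0.132), and over the 14 settings other than leaving out pigs adjusted p ran from 0.00472 to 0.132. The part of those markers in the result was not tested.

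Other LPL probes were lower in Creole by smaller amounts that did not pass the threshold. The differences were -0.63 for A_72_P760377 (adjusted p = 0.11), -0.54 for A_72_P232767 (adjusted p = 0.114), -0.33 for the brightest probe (95% interval -0.68 to 0.02, adjusted p = 0.37), -0.28 for A_72_P732308, -0.27 for A_72_P715658 and -0.069 for O15020. The probes of this gene therefore gave different sizes for 1 comparison. PPARG, the receptor that drives adipocyte differentiation, was also on the low side in Creole, at -0.38 on its brightest probe (95% interval -0.65 to -0.12, adjusted p = 0.104), with 4 of 4 probes at an unadjusted p under 0.05 and a smallest adjusted p of 0.0642. Of 12 Creole pigs, 10 lay below the Large White mean of that probe, among them 6 of 6 at TN. The brightest PPARG probe shares runs of 45 and 53 bases with 2 of the others, so the 4 are not independent readings. Without Creole replicate 1 at HS all 4 PPARG probes passed the threshold, and with slide as a block 2 did. Over the settings other than leaving out pigs, the brightest probe ran from -0.45 to -0.24, with an adjusted p of 0.0542 to 0.478. With each pig left out in turn, its adjusted p ran from 0.0262 to 0.183. FABP4 gave -0.63 to -0.30 over its 8 probes, 4 of them at an unadjusted p under 0.05 and none past the adjusted threshold.

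Neither comparison with F1 gave a call. The comparison with Large White uses the same Large White pigs as that of Creole. In it F1 was lower on 50 of the 52 probes and higher on 2, with a median of -0.313 log2 (0.000501 over all kept probes). Of the 52 probes, 0 were called by limma against a background of 0.525%, and 20 (38.5%) had an unadjusted p under 0.05, against 10.5% of all kept probes. FABP4 was at -0.78 (95% interval -1.31 to -0.25, adjusted p = 0.198) with 8 of 8 probes at an unadjusted p under 0.05, PPARG at -0.37 with 4 of 4, and LPL at -0.45 on its brightest probe with 5 of 7. Against Creole, F1 was lower on 47 probes and higher on 5, with a median of -0.233, 0 calls against a background of 0.477%, and 0 probes at an unadjusted p under 0.05. With array quality weights 7 probes of F1 against Large White passed the threshold, 3 of LPL, 2 of FABP4 and 2 of PPARG, and with the mean of leukocyte markers added to the model 12 did, 6 of FABP4, 3 of LPL and 3 of PPARG, so the absence of calls depended on these settings.

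**Figure D3:**
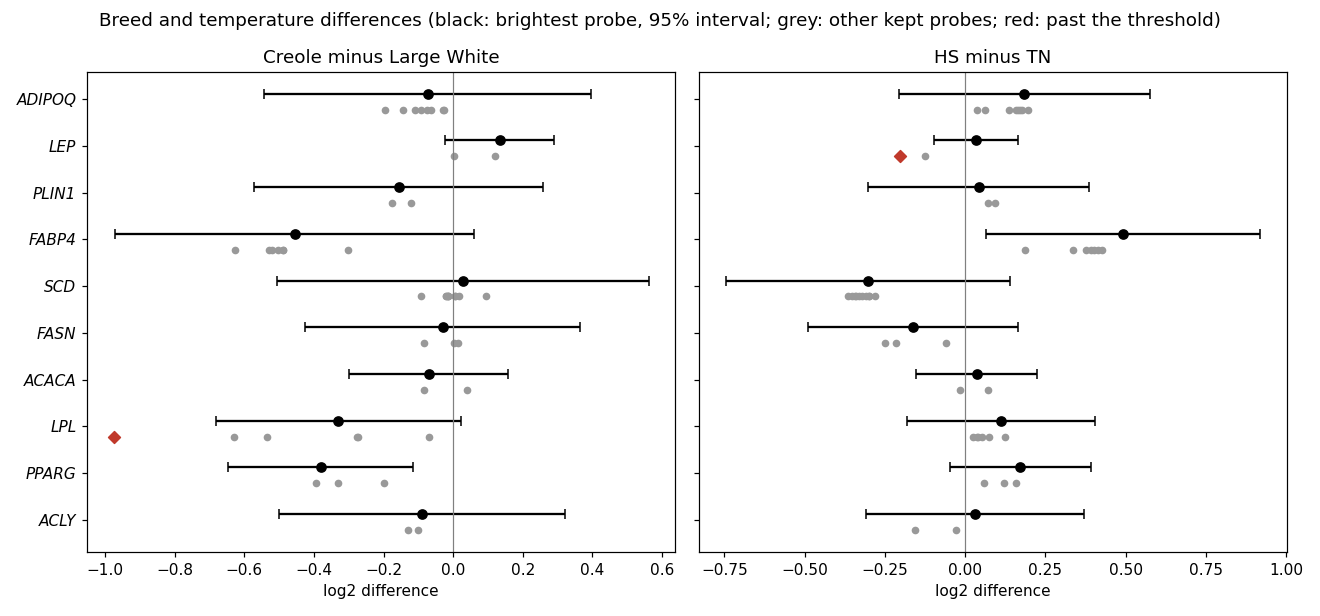
Log2 difference of Creole minus Large White over both temperatures and of HS minus TN over the 3 breeds, 1 line per gene, with the brightest kept probe in black with its 95% interval and the other kept probes in grey. Red diamonds mark the probes past the adjusted threshold, 1 LPL probe at -0.97 between the breeds and 1 LEP probe at -0.20 between the temperatures.

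Heat was compared over the 3 breeds, with breed in the model. While 16% of all kept probes were called between HS and TN, 1 of the 52 probes (1.92%) was, and it fell. At HS 34 probes were higher and 18 lower, with a median of 0.0551 log2 against -0.0218 over all kept probes, and 5 (9.62%) had an unadjusted p under 0.05, against 30.7% of all. The called probe was LEP O15019, at 6.04 ± 0.17 (SD, n = 18) at TN and 5.84 ± 0.12 (SD, n = 17) at HS, a difference of -0.20 (SE 0.053, 95% interval -0.31 to -0.096, adjusted p = 0.00889), or 0.868-fold. The 6 Large White pigs at HS, 5.66 to 5.97, lay below all 6 at TN, 5.99 to 6.16, while in Creole the ranges of 5.67 to 6.34 at TN and 5.74 to 6.07 at HS overlapped. In F1 the range at TN was 5.64 to 6.11, and the pigs at HS read 5.66, 5.79, 5.92, 5.93 and 6.01.

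The LEP change rested on a signal 1.35 times the local background. The probe with the same 60 bases gave -0.12 (adjusted p = 0.0794), and the brightest LEP probe, of another sequence, gave 0.034 (adjusted p = 0.765). Averaging probes of 1 sequence gave -0.16 with an adjusted p of 0.00561. The call of O15019 was kept whichever pig was left out, with an adjusted p of at most 0.0169, and was lost with spike-in scaling (-0.17, adjusted p = 0.0736), with array brightness as a covariate (-0.18, adjusted p = 0.0676), with the leukocyte marker mean (-0.12, adjusted p = 0.178) and with the connective tissue marker mean (-0.097, adjusted p = 0.38). Within slides 1 to 4, the difference was -0.24, -0.030, -0.32 and -0.21.

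FABP4 was higher at HS by 0.49 on its brightest probe (95% interval 0.07 to 0.92, adjusted p = 0.104). The difference was on the same side in the 3 breeds, at 0.58 in Creole, 0.27 in F1 and 0.61 in Large White, and within slides 1 to 4 it was 1.18, 0.10, 0.48 and 0.36. Adding the mean of leukocyte markers to the model brought it to 0.056, and over the settings other than leaving out pigs adjusted p ran from 0.0693 to 0.897, the latter in that model. Without Large White replicate 6 at TN, which had the highest FABP4 of its group, it was 0.58 and passed the threshold (adjusted p = 0.0378). With each pig left out in turn, the FABP4 difference ran from 0.36 to 0.58, and its adjusted p went up to 0.172. Large White replicate 5 at HS, which stood apart from its group at 16.83, also enters this difference. The other brightest probes gave 0.18 for ADIPOQ (95% interval -0.21 to 0.57), -0.30 for SCD (-0.75 to 0.14), -0.16 for FASN, 0.17 for PPARG and 0.11 for LPL, none past the threshold, and 0.042, 0.036 and 0.030 for PLIN1, ACACA and ACLY.

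The small average of SCD over breeds came from values of opposite sign. In Creole, HS minus TN was -0.82 for SCD (95% interval -1.46 to -0.18, adjusted p = 0.131), with 5 of 6 HS pigs below the TN mean. In Large White the difference was -0.76 (-1.41 to -0.12, adjusted p = 0.216), with 6 of 6 below. In F1 it was 0.77 (0.10 to 1.44, adjusted p = 0.508), with 4 of 5 above. The pattern was shared by the 11 SCD probes, which ran from -0.97 to -0.61 in Creole, from -0.81 to -0.62 in Large White and from 0.26 to 0.84 in F1. Those probes read the same RNA samples, some of them share sequence, and they are no replicates of the response.

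The heat response of F1 differed from that of the pure breeds for SCD only before adjustment. The difference of responses was 1.54 between F1 and Large White (95% interval 0.61 to 2.47, unadjusted p = 0.0020, adjusted p = 0.937) and 1.59 between F1 and Creole (0.66 to 2.52, unadjusted p = 0.0014, adjusted p = 0.823), while that between Creole and Large White was -0.055 (-0.96 to 0.85). The moderated F test of the interaction called 0 probes on the whole array (a background of 0%, 3.84% at an unadjusted p under 0.05), with a smallest adjusted p of 0.963. Among the 52 probes, 19 (36.5%) had an unadjusted p under 0.05, all 11 of SCD, 4 of 4 of FASN, 3 of 3 of PLIN1 and 1 of 9 of ADIPOQ. FASN had the same signs as SCD, at -0.41 in Creole, 0.43 in F1 and -0.45 in Large White. PLIN1 gave -0.21, 0.69 (95% interval 0.11 to 1.26) and -0.29, and ADIPOQ -0.035, 0.82 (0.16 to 1.49) and -0.18, and for both genes 5 of 5 F1 pigs at HS lay above the F1 mean at TN.

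The response in F1 was uneven between slides. Within slides 1 to 4, HS minus TN in F1 was 1.84, 1.32, -0.12 and -0.23 for SCD, 1.30, 1.15, -0.19 and -0.52 for FASN, 1.25, 1.93, 0.59 and -0.014 for ADIPOQ, and 1.06, 1.72, 0.43 and -0.074 for PLIN1. The same slides gave 0.14, -2.19, -1.08 and -0.44 for SCD in Creole and -0.30, -0.48, -1.51 and -0.83 in Large White. Each slide held 1 or 2 pigs of a group, so these values have no error of their own.

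**Figure D4:**
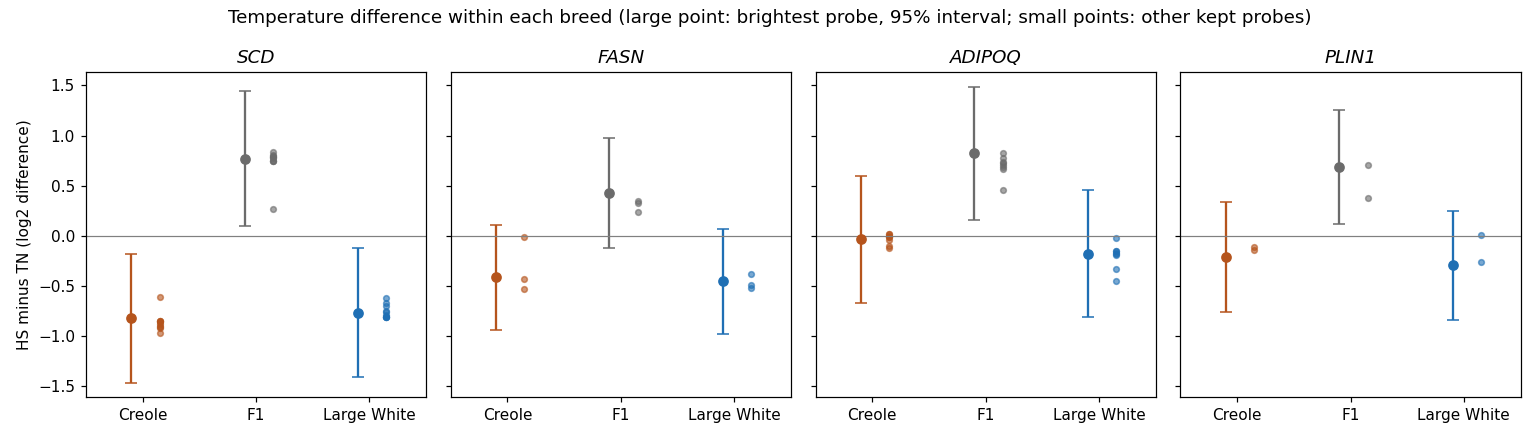
HS minus TN in log2 within Creole, F1 and Large White for SCD, FASN, ADIPOQ and PLIN1 on their brightest probes, with bars for the 95% interval. On these probes the 4 genes lie above 0 in F1 (0.43 to 0.82) and below 0 in both pure breeds. The intervals of FASN, ADIPOQ and PLIN1 in the pure breeds, and of FASN in F1, include 0. In Creole 3 of 9 ADIPOQ probes were higher at HS, and in Large White 1 of 3 PLIN1 probes.

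No probe of the 10 genes was called within a breed. In Creole 22 of the 52 probes were higher at HS and 30 lower, with 0 called by limma against a background of 1.91% and 16 (30.8%) at an unadjusted p under 0.05, where all kept probes gave 21.5%. In F1 44 were higher and 8 lower, with 0 called against 0.00482% and 23 (44.2%) at an unadjusted p under 0.05, where all kept probes gave 8.3%. In Large White 17 were higher and 35 lower, with 0 called against 0.00482% and 14 (26.9%) at an unadjusted p under 0.05, where all kept probes gave 16.6%. PPARG in Creole was at 0.49 on its brightest probe (95% interval 0.13 to 0.85, adjusted p = 0.108), with 4 of 6 HS pigs above every TN pig. Its other probes gave 0.35, 0.33 and 0.038. The last was O15024, which shares no run of at least 20 bases with the others. Between Creole and Large White, 0 of 52 were called at TN (background 0.997%) and 0 at HS (background 0.296%), and at an unadjusted p under 0.05 there were 7 at TN (13.5%, against 13% of all kept probes) and 2 at HS (3.85%, against 7.17%). The called LPL probe gave -1.03 at TN (adjusted p = 0.143) and -0.92 at HS (adjusted p = 0.41).

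In wider lists of fat and lipid genes, most of the calls were between the temperatures and few between the breeds. Over all 9456 genes with a kept probe, each taken on its brightest probe, 18.4% were called between HS and TN and 3.8% between Creole and Large White. Of 13 other adipocyte genes measured, among them CIDEC, which coats lipid droplets, 0 were called by limma in either comparison, with medians of 0.0027 and 0.083 log2. Of these genes, RETN, ADRB3 and LGALS12 were dim, with group means between 5.50 and 5.97, and could show little change. GPD1 was bright in every group, with means of 17.57 to 17.84, and which cells its signal came from was not tested. Of 16 further lipogenic enzymes and desaturases, 2 fell at HS and 1 was lower in Creole, SCD5, a second desaturase, at -0.43 (adjusted p = 0.00779, 2 of 2 probes). At HS, ACSL1, which activates fatty acids, fell by 0.46 (adjusted p = 0.00479, 3 of 4 probes), and ACACB, the carboxylase whose product restrains fatty acid oxidation in muscle, fell by 0.23 (adjusted p = 0.00799, 1 of 3 probes). ELOVL6, which lengthens palmitate, was at -0.47 at HS and did not pass (adjusted p = 0.0866).

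Triglyceride synthesis counted 4 lower and 1 higher at HS of 11 measured. LPIN1, a phosphatidate phosphatase, was at -0.49 (adjusted p = 0.00931, 2 of 8 probes), AGPAT3 at -0.30 (adjusted p = 0.00735, 4 of 4 probes), GPAT4 at -0.26 (adjusted p = 0.023, 1 of 3 probes) and GPAM, the mitochondrial first acylation step, at -0.20 (adjusted p = 0.0292). LPIN2, a relative of LPIN1, was the higher one at 0.31 (adjusted p = 0.0155, 1 of 3 probes). Of 12 genes of lipolysis and the droplet, 3 fell at HS, led by PNPLA2, the adipose triglyceride lipase, at -0.42 (adjusted p = 0.000999, 3 of 3 probes), with FITM1 at -0.30 and BSCL2 at -0.16.

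Among 9 measured partners of LPL and carriers of fatty acid uptake, 5 fell and 1 rose at HS. The carriers SLC27A1, at -0.34 (adjusted p = 0.000678, 2 of 3 probes), and FABP3, the muscle counterpart of FABP4, at -0.26 (adjusted p = 0.0389, 5 of 5 probes), fell. So did LMF1, which LPL needs to fold, at -0.29, and APOC3, an inhibitor of LPL, at -0.55 (1 of 2 probes), while APOE rose by 0.50 (2 of 2 probes). ANGPTL4, which inactivates LPL, fell at HS by 1.07 (adjusted p = 0.0206). Creole minus Large White was -1.64 for it (SE 0.38, adjusted p = 0.0105), and -1.64 to -1.25 over its 4 probes, all called.

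The group means of ANGPTL4 were 9.89 in Creole, 11.02 in F1 and 11.76 in Large White at TN, and 9.35, 9.29 and 10.76 in the same order at HS. The Creole pigs at TN ranged from 7.99 to 11.10 and the Large White pigs at TN from 10.65 to 12.80, so the ranges overlapped at one end. The breed that was lower on the called LPL probe was thus also lower for the transcript of this inhibitor. APOC3, the other inhibitor named, went the other way, higher in Creole by 0.34 and 0.54 on its 2 probes, neither called (smallest adjusted p = 0.518). Among 17 regulators of fat genes, 2 rose and 2 fell at HS: NR1H3, a sterol receptor, at 0.36 (3 of 4 probes) and CEBPA at 0.79 (1 of 4 probes, 1 of the others lower), against CEBPB at -0.32 and MLXIPL, a carbohydrate-sensing factor, at -0.19. PPARD was the only regulator called between the breeds, higher in Creole at 0.48 (adjusted p = 0.015, 1 of 3 probes), and 0 of 3 adiponectin receptors were called by limma in either comparison. In both comparisons with F1, 0 genes of these lists were called.

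With group means subtracted, some of the 10 genes varied together over the 35 pigs. ADIPOQ and PLIN1 had r = 0.904 (rho = 0.909), and without the 2 arrays farthest from the median r = 0.878. SCD and FASN had r = 0.849 (rho = 0.833), FASN and ACACA 0.824 (rho = 0.75) and SCD and ACACA 0.816 (rho = 0.772). ACLY varied with the other enzymes (r = 0.697 with FASN, 0.678 with SCD and 0.613 with ACACA) and also with PPARG (r = 0.643) and LPL (r = 0.632), and FASN with PPARG (r = 0.643). FABP4 varied with LPL (r = 0.631, rho = 0.644) and hardly with ADIPOQ (r = -0.251, rho = 0.104), and LEP with none of the others (r from -0.229 to 0.187). These are descriptions across pigs that share normalisation and slides, as are the following.

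**Figure D5:**
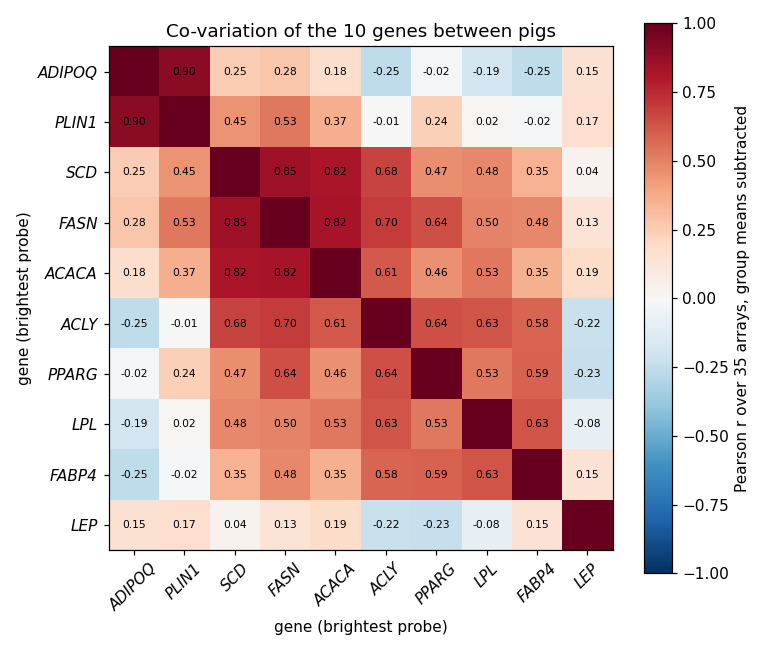
Pearson's r between the brightest probes of the 10 genes over 35 arrays after group means were subtracted, shown as a coloured grid. ADIPOQ with PLIN1 (0.904) and SCD with FASN and ACACA (0.849 and 0.816) form blocks, and LEP stays between -0.229 and 0.187.

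Of 9446 other genes, those with values most like ADIPOQ and PLIN1 included CIDEC, with r = 0.832 (rho = 0.850) to ADIPOQ and r = 0.896 (rho = 0.900) to PLIN1. DGAT2, which makes triglyceride, was among the 5 most like PLIN1 (r = 0.789), SCD (r = 0.646) and FASN (r = 0.724). ELOVL6 came first for both SCD (r = 0.756, rho = 0.676) and FASN (r = 0.769, rho = 0.723), and MLXIPL was in both lists (0.656 and 0.695). The mean of the other adipocyte genes had r = 0.773 (rho = 0.739) with PLIN1 and 0.758 (rho = 0.634) with ADIPOQ, and its group means were within 8.59 to 8.83.

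Some markers of other cells were called. Over all 9456 genes, 18.4% were called between HS and TN and 3.8% between Creole and Large White. Among the marker lists, calls between the breeds came only from the connective tissue and endothelial lists. Of 16 leukocyte genes measured, 7 rose at HS, among them LAPTM5 at 1.26, CTSS at 1.19 and AIF1, a macrophage gene, at 0.89, and 0 were called between the breeds. The leukocyte mean was 8.76 (7.72 to 9.67) in Creole at TN and 9.77 (9.17 to 10.71) at HS, 9.34 (8.80 to 10.25) and 9.59 (9.15 to 9.90) in F1, and 9.15 (8.26 to 10.29) and 9.78 (8.94 to 10.74) in Large White. Over pigs with group means subtracted it had r = 0.648 (rho = 0.559) with FABP4, 0.682 (rho = 0.696) with PPARG, 0.654 (rho = 0.646) with ACLY, 0.544 (rho = 0.508) with LPL and -0.424 (rho = -0.375) with ADIPOQ. The muscle fibre mean had negative r with 7 of the 10 genes beyond 0.4 in size, at -0.662 (rho = -0.518) with FABP4, -0.645 (rho = -0.455) with LPL, -0.575 (rho = -0.476) with FASN, -0.562 (rho = -0.416) with ACLY, -0.500 (rho = -0.404) with ACACA, -0.489 (rho = -0.418) with SCD and -0.467 (rho = -0.317) with PPARG. The markers in these lists stood above background on at least 34 arrays for leukocytes, except CD2 on 31 and CD79A on 26, and the part of leukocytes and fibres in the values of these genes was not tested.

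Of 15 connective tissue genes, 6 rose at HS, among them FN1 at 0.84 and LUM at 0.39, and 3 were lower in Creole than in Large White, COL3A1 at -0.43, COL6A3 at -0.44 and DCN at -0.28. The connective tissue mean was 11.92 (10.90 to 12.33) in Creole, 12.06 (11.93 to 12.26) in F1 and 12.31 (11.96 to 12.53) in Large White at TN, and 12.40 (12.16 to 12.63), 12.29 (11.95 to 12.71) and 12.60 (12.42 to 12.74) at HS. Of 9 endothelial genes, 3 were lower in Creole, KDR at -0.96, CLDN5 at -0.59 and PECAM1 at -0.40, and 1 was lower at HS, VWF at -0.36. LPL acts on the surface of capillary endothelium, which also makes FABP4, and the part of the vessel and connective tissue genes in the values of LPL and FABP4 was not tested. Of 13 muscle fibre genes, 1 rose and 3 fell at HS and 0 were called between the breeds, of 4 blood genes 2 fell at HS, with HBB at -1.21, and of 9 nerve genes 2 rose.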

How the data were processed

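RNA of 35 longissimus dorsi samples was hybridised with Cy3 to porcine 60-base arrays, up to 8 per slide on 5 slides. The authors deposited the scanner output of Agilent Feature Extraction 10.10.1.1, whose median spot intensity was used here, and a table of log2 values after quantile normalisation of 40649 probes. Per the labels, breed and temperature define the groups. Set against the arrays, 35 of 35 columns of the deposited log2 table lay closest to their own array, with an SD of the difference of 0.00926, and column medians of 8.088 to 8.093. Scale and direction were thereby settled, and the table served as an alternative. The random terms of the study's own model are not in the labels and were not fitted.

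Here 105 spots flagged as outliers were left out, median intensities were quantile normalised without background subtraction and logged, spots of a probe were averaged, and a probe was kept where 75% or more of the arrays of any group had it above background (41517 of 60305; 38.9% of probes have a symbol). Plain log2 intensity has its floor at the background, which shrinks differences of dim probes. No spot of the 10 genes was saturated. Linear models used limma 3.58.1 (R 4.3.3) and held breed plus temperature, or with a mean per group for comparisons within a breed or temperature and the interaction, and p-values were adjusted by Benjamini-Hochberg with a threshold of 0.05. They measure the spread between pigs, littermates being treated as independent. The brightest kept probe represents a gene, and every probe of the 10 genes was tested. Named pathway genes are those called, and genes most like a member were ranked by r with group means subtracted. On simulated data with 200 probes changed by 1 log2, 98.5% were recovered for HS minus TN, 96% for each comparison of breeds over temperatures, 86%, 88.5% and 87.5% for HS minus TN within Creole, F1 and Large White, and 72.5% for the interaction. The changed probes were drawn at random from the kept probes, with noise independent between probes and pigs. Within Creole, the SE of HS minus TN on the brightest probe was 0.11 for LEP, 0.32 for SCD and 0.37 for FABP4. The recovery of any given gene of the 10 was therefore not measured. The number of arrays limits the precision. Other settings were scaling, background correction, filter, slide block, array weights, covariates and leaving out each pig. Python 3.11.15 with pandas 2.3.3, numpy 2.4.6 and matplotlib 3.10.9 read the files and drew the plots. The genes and lists were chosen with earlier results of these data known. Genome positions of the probes were not analysed here. The sequences of some probes are not reported here.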

Additional observations from a re-analysis of the deposited data

Results flagged for a closer look

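Single pigs stood apart from their group by more than a gap test allows at the 95% level for 8 of 72 sets of values checked (12 probes in 6 groups), where chance gives about 3.6. The value given is the gap to the nearest pig over the range of the group. ADIPOQ was lowest in Creole replicate 6 at HS (10.66 against 11.44 for the nearest pig, 0.672). Brightest-probe LEP was lowest in F1 replicate 3 at HS (6.10 against 6.49, 0.8), and LEP O15019 in F1 replicate 2 at TN (5.639 against 5.993, 0.757). FABP4 was highest in Large White replicate 6 at TN (15.73 against 14.2, 0.759) and in Large White replicate 5 at HS (16.83 against 15.01, 0.733). SCD was lowest in Large White replicate 4 at HS (11.4 against 12.44, 0.793). The called LPL probe was lowest in Creole replicate 1 at TN (8.49 against 10.3, 0.687) and highest in Large White replicate 5 at HS (12.3 against 11.31, 0.636).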

How the results depend on the processing

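Both calls kept their direction under every setting tried. Over the 14 settings other than leaving out pigs, LEP O15019 at HS ran from -0.45 to -0.097 and was lost under 4, and LPL A_72_P742824 between the breeds ran from -1.05 to -0.69 and was lost under 1. Leaving out each pig kept both calls, at -0.23 to -0.19 and -1.10 to -0.81. No value past the threshold changed sign. The cause of the changes below was not tested. The number of called probes at HS (1) was 2 with 75th percentile scaling, 2 with median scaling, and 0 with spike-in scaling, with array brightness, leukocyte or connective tissue covariates, and with the mean over kept probes of a gene. Between Creole and Large White (1) it was 3 with slide as a block, 2 with array weights, 2 with the leukocyte covariate, and 0 with the connective tissue covariate and the gene mean. Between F1 and Large White (0) it was 7 with array weights and 12 with the leukocyte covariate, and for HS in Large White (0) it was 1 with array weights. Leaving out each pig gave 1 to 2 at HS (2 without Large White replicate 1 at HS, F1 replicate 3 at TN or Large White replicate 6 at TN), 1 to 7 between Creole and Large White (7 without Creole replicate 1 at HS, 2 without Large White replicate 4 at HS or 3 at TN), 0 to 1 between F1 and Large White (1 without Creole replicate 1 at TN) and 0 to 1 between the pure breeds at TN (1 without Large White replicate 3).

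Values near 0 changed sign as follows. At HS, brightest-probe LEP became -0.053 with 75th percentile scaling, -0.022 with array brightness and -0.098 with the gene mean. ACLY became -0.0052 with 75th percentile scaling, -0.030 with the processed signal, -0.061 with array brightness, -0.27 with leukocytes, -0.053 with connective tissue and -0.052 with the gene mean. The brightest LPL probe became -0.080 with array brightness, -0.14 with leukocytes and -0.0093 with connective tissue, LPL A_72_P742824 -0.14 with array weights, -0.089 with array brightness, -0.24 with leukocytes and -0.28 with connective tissue, and PPARG -0.069 with leukocytes. Between Creole and Large White, SCD became -0.034 with median scaling, -0.061 with spike-ins, -0.0015 with the processed signal, -0.017 with the slide block, -0.094 with connective tissue and -0.0028 with the gene mean. LEP O15019 became -0.014 with spike-ins, -0.0086 with normexp, -0.014 with the slide block, -0.011 with array weights, -0.0025 with array brightness, -0.025 with leukocytes and -0.092 with connective tissue, and ACLY 0.0024 with leukocytes. ADIPOQ at HS in Creole became 0.045 with median scaling, 0.10 with spike-ins, 0.15 with array brightness and 0.36 with leukocytes, ADIPOQ at HS in Large White 0.089, 0.0049 and 0.071 with spike-ins, array brightness and leukocytes, and PLIN1 at HS in Large White 0.0035 with spike-ins. Leaving out each pig gave, at HS, PLIN1 -0.020 to 0.12, ACACA -0.0064 to 0.074, ACLY -0.042 to 0.080, LPL A_72_P742824 -0.077 to 0.096 and FABP4 0.36 to 0.58, and between Creole and Large White ADIPOQ -0.22 to 0.021, SCD -0.089 to 0.16, FASN -0.11 to 0.074, LEP O15019 -0.024 to 0.039 and PPARG -0.45 to -0.34. ADIPOQ at HS ran from -0.21 to 0.14 in Creole and from -0.41 to 0.10 in Large White.

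Of all probes called at HS (6654, 48.2% higher), 75th percentile scaling gave 9300 (27.3% higher), median scaling 6653 (56.7%) and spike-ins 4671 (86.6%), and between Creole and Large White spike-ins gave 920 (26% higher, against 47.4%). Averaging probes of 1 sequence was chosen after seeing the data. Dim signals limit what LEP can show. No paired analysis was possible because the replicate numbers follow accession order and pair no pigs.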
